A study of Mus musculus with 6 samples.

Results

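The matrix metalloproteinases (MMPs), the ADAM and ADAMTS proteases and their tissue inhibitors, the TIMPs, were examined in the aortas of mice with atherosclerotic or medial calcification and of young wild-type mice. Members were taken by gene symbol alone, as an Mmp, Adam or Adamts symbol followed by a number, with or without the letter a or b for Mmp and Adam, or Timp followed by a digit. Of the 27815 gene identifiers in each file, 66 carried such a symbol, namely 20 Mmp, 4 Timp, 23 Adam and 19 Adamts genes. Polyadenylated RNA from C57BL/6 aorta was sequenced in 6 libraries, 2 in each of 3 groups. The ApoE group was ApoE-/-, without the lipoprotein ligand apolipoprotein E, and had eaten chow for 16 months, by when its plaques had calcified. The CKD group lost both poles of the left kidney at 8 weeks of age and, after 1 week of recovery, the right kidney. It then received 2% phosphate in the diet and 0.45% NaCl in the water for 4 weeks, which calcifies the medial layer. The Ctrl group was wild type and 2 months old. The age given for the CKD libraries, 16 months, conflicts with the protocol, so their age is uncertain, and genotype and age differ together between ApoE and Ctrl. No label says whether a library is 1 animal or a pool, and the protocol speaks of pooling 4 samples where miRNA was sequenced. SDs and p-values thus cover only how far these libraries vary, and that variation may be technical.

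MMPs are secreted or membrane-bound zinc proteases that cut collagens, elastin and other matrix proteins, and most are made as inactive precursors. ADAMs are membrane proteins, some of which release the outer part of other membrane proteins, and ADAMTSs are secreted proteases that process procollagens or cut large proteoglycans. TIMPs block the active site of MMPs and of some ADAMs and ADAMTSs, and in the artery wall these enzymes come from smooth muscle cells, adventitial fibroblasts, endothelium and infiltrating macrophages.

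Of the 66 genes, 43 had at least 1 FPKM (reads per kilobase of exon and per 1 M reads) in at least 2 libraries and were tested, and the other 23 did not reach 1 FPKM in any library. Those tested were 14 Mmp, 4 Timp, 12 Adam and 13 Adamts genes. Mmp8 and Adamts7 reached 1 FPKM in ApoE libraries only, Adamts3 and Adamts12 in CKD libraries only, and Adam22 in Ctrl libraries only. Their presence among the tested genes depended on the group in which they are high. Fold changes are log2 of FPKM + 1, which understates the change of low genes, and a gene was called when its Benjamini-Hochberg adjusted p from limma, over all 14074 genes tested, was under 0.05. The exons of 15 tested members overlap another annotated gene, and because the library kit keeps no strand, reads from the shared stretch cannot be told apart. They are Mmp11, Mmp12, Mmp19, Mmp28, Timp3, Timp4, Adam1a, Adam8, Adam15, Adam17, Adam19, Adamts4, Adamts7, Adamts8 and Adamts9.

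The libraries held 14.4 to 16.6 M reads. Apoe itself averaged 12.3 ± 1.29 FPKM in ApoE, 1429 ± 26.1 FPKM in CKD and 692 ± 91.2 FPKM in Ctrl (SD, n = 2 each). The cell makeup of the samples also differed. Summed FPKM of 13 macrophage markers was 8174 and 12191 in ApoE, 1253 and 1959 in CKD and 626 and 565 in Ctrl. Summed FPKM of 11 contractile smooth muscle markers, which define the main cell of the aortic media, was 999 and 861 in ApoE, 4996 and 8126 in CKD and 11642 and 10533 in Ctrl. White adipocyte markers summed to 3972 and 4244 in ApoE, 9861 and 3198 in CKD and 514 and 1243 in Ctrl, so these transcripts were lowest in the Ctrl libraries and highest in CKD 1. In bulk RNA, fewer cells of a type and less RNA per cell cannot be told apart, and the part of macrophages and smooth muscle cells in the differences given here was not tested. The level of the white adipocyte markers was entered in 1 further fit, given with the counts of calls.

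In ApoE versus Ctrl, 11 of the 43 tested members were higher and 14 were lower, 58.1% in all, against 44.1% of all genes tested. The higher calls, 25.6% of the tested members, stand beside 19.8% of all genes, and the lower calls, 32.6%, beside 24.3%. In CKD versus Ctrl 4 members were higher and 2 were lower, or 14.0% of the members beside 5.44% of all genes, which were 2.23% higher and 3.21% lower. In ApoE versus CKD 11 were higher and 14 lower, again 58.1%, beside 39.7% of all genes (18.5% higher and 21.2% lower). Some members counted passed the filter only through a group in which they are high. These are Mmp8, Adamts7 and Adam22 in ApoE versus Ctrl, and Mmp8, Adamts3, Adamts7 and Adamts12 in ApoE versus CKD. The 2 comparisons with Ctrl share the Ctrl libraries. The median absolute log2 fold change of the tested members was 1.06 in ApoE versus Ctrl, 0.42 in CKD versus Ctrl and 0.89 in ApoE versus CKD, against 0.48, 0.28 and 0.45 for all genes tested. The families did not move alike. In ApoE versus Ctrl 6 of 14 Mmp genes were higher and 2 lower, whereas 2 of 13 Adamts genes were higher and 7 lower.

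**Figure D1:**
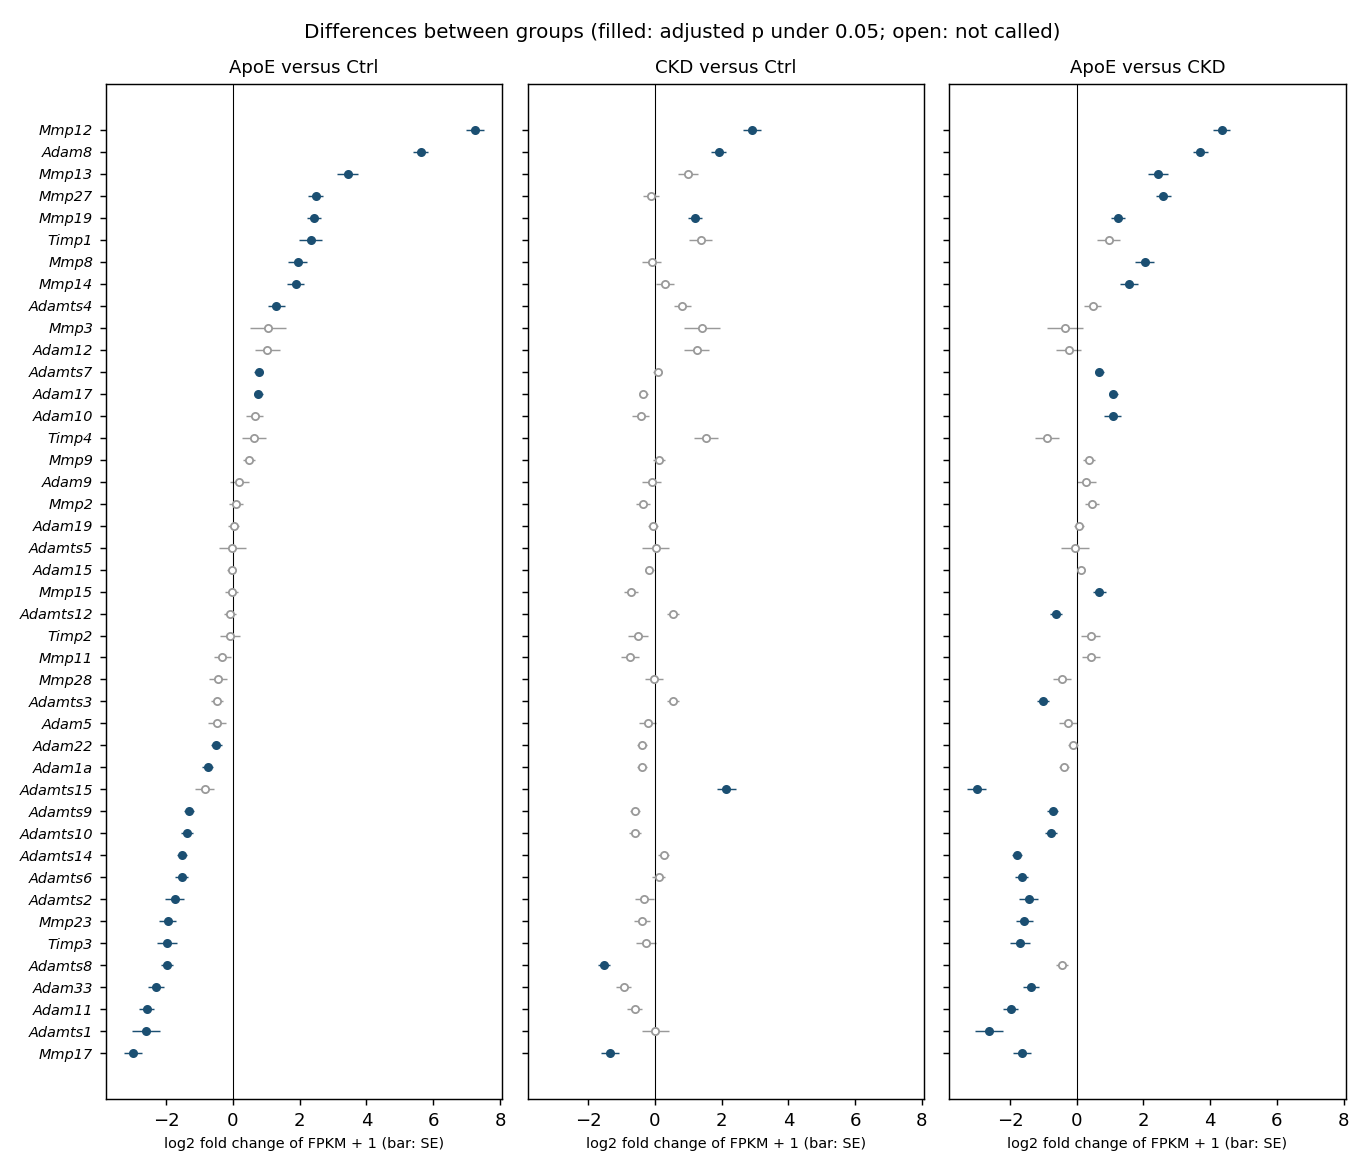
Log2 fold change of FPKM + 1 for each of the 43 tested members (rows, ordered by the change in ApoE versus Ctrl), in ApoE versus Ctrl, CKD versus Ctrl and ApoE versus CKD; points are limma estimates, bars their standard error, and filled points have an adjusted p under 0.05. Mmp12 leads the first panel at 7.25 and Mmp17 ends it at -2.99, and 6 points are filled in the middle panel.

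The calls of CKD versus Ctrl depended on single libraries, including those of ApoE, whose spread enters the shared variance. Without ApoE 1, ApoE 2, Ctrl 1 or Ctrl 2, 0 of the 43 members were called by limma in CKD versus Ctrl, although 19, 20, 12 and 11 of them had an unadjusted p under 0.05. Without CKD 1, 2 members were called, both higher, and without CKD 2, 6 were higher and 3 lower. In ApoE versus Ctrl between 9 and 14 members were higher and between 12 and 16 lower, whichever library was left out. With the mean log2 level of the white adipocyte markers as a covariate, 7 members were higher and 7 lower in ApoE versus Ctrl, and 0 were called in CKD versus Ctrl, where 13 had an unadjusted p under 0.05. The calls lost in ApoE versus Ctrl were those of Mmp8, Mmp23, Timp3, Adam1a, Adam17, Adam22, Adamts1, Adamts2, Adamts4, Adamts6 and Adamts7. The covariate itself was 4.44 and 5.54 in Ctrl and 6.75 to 8.37 in the ApoE and CKD libraries, so it differed with the group. Wherever it is used, a call lost with it cannot tell the part of fat from the group difference.

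The largest difference in any of the families was that of Mmp12 (ENSMUSG00000049723; chromosome 9, 7344381 to 7369499 in GRCm38), the macrophage elastase. Mmp12 stood at 250.2 and 242 FPKM in the ApoE libraries, 8.47 and 14.7 FPKM in the CKD libraries and 0.822 and 0.438 FPKM in the Ctrl libraries. The 3 groups did not overlap, with ApoE highest and Ctrl lowest (log2 fold change 7.25, SE 0.26, adjusted p = 0.000172 for ApoE versus Ctrl). It was also higher in CKD than in Ctrl (log2 fold change 2.91, SE 0.26, adjusted p = 0.0145), with adjusted p between 0.0668 and 0.111 when ApoE 1, ApoE 2, Ctrl 1 or Ctrl 2 was left out. Mmp12 alone made up 42.5% of the summed FPKM of the 20 Mmp genes in ApoE, where the leading Mmp gene of CKD was Mmp3, at 42.1% of the sum, and that of Ctrl was Mmp23, at 30.8%. Its exons overlap those of Mmp1b, which has no value in the data used here.

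The collagenases that have values here were likewise higher in ApoE than in Ctrl. Mmp13, which cuts fibrillar collagen, had 20.8 and 13.5 FPKM in ApoE, 1.64 and 3.08 in CKD and 0.944 and 0.395 in Ctrl, with no overlap between groups (log2 fold change 3.43, SE 0.31, adjusted p = 0.000768 for ApoE versus Ctrl). The difference of CKD from Ctrl was 1.00 and was not called (adjusted p = 0.102). Mmp8, the neutrophil collagenase, had 4.71 and 2.77 FPKM in ApoE, 0 and 0.286 in CKD and 0.0248 and 0.436 in Ctrl. Both ApoE libraries lay above the other 4 (log2 fold change 1.94, SE 0.29, adjusted p = 0.00399 for ApoE versus Ctrl). Summed FPKM of 8 neutrophil markers was 62.1 and 21.9 in ApoE, 4.79 and 21.5 in CKD and 2.89 and 25.3 in Ctrl, so ApoE 1 was highest for these as well, and ApoE 2, CKD 2 and Ctrl 2 had like levels. The part of these cells in the Mmp8 difference was not tested.

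Mmp27, for which little is known, had 12.4 and 12 FPKM in ApoE, 0.734 and 1.75 in CKD and 1.44 and 1.29 in Ctrl, with ApoE clear of the rest (log2 fold change 2.48, SE 0.23, adjusted p = 0.000816 for ApoE versus Ctrl). Its CKD libraries lay on either side of the Ctrl ones. Mmp19, a secreted MMP of many tissues, stood at 28.8 and 20.5 FPKM in ApoE, 8.38 and 11.3 in CKD and 3.66 and 3.74 in Ctrl. The groups were separate in the order ApoE, CKD, Ctrl, and both models were higher than Ctrl (2.43, adjusted p = 0.000651 for ApoE and 1.19, adjusted p = 0.0392 for CKD). The CKD call of Mmp19 was lost without any library other than CKD 2, with adjusted p between 0.0706 and 0.222. Mmp14, the membrane-type MMP that activates the Mmp2 precursor at the cell surface, had 63.2 and 61.4 FPKM in ApoE, 15.4 and 26.7 in CKD and 17.8 and 14.8 in Ctrl. Only the ApoE libraries stood apart (log2 fold change 1.87, SE 0.26, adjusted p = 0.00311 for ApoE versus Ctrl), and the CKD and Ctrl ranges overlapped. In ApoE versus Ctrl the Mmp12, Mmp13, Mmp14, Mmp19 and Mmp27 calls held in each of the 15 alternative settings tried.

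Other Mmp genes were lower in ApoE. Mmp17, an MMP anchored to the membrane by a lipid, had 2.09 and 1.69 FPKM in the ApoE libraries, 5.75 and 10.9 FPKM in the CKD libraries and 23.0 and 20.7 FPKM in the Ctrl libraries. It was lower in both models without overlap (log2 fold change -2.99, SE 0.27, adjusted p = 0.000797 for ApoE versus Ctrl), and in CKD versus Ctrl its log2 fold change was -1.35, adjusted p = 0.0498. The CKD call was lost without any library other than CKD 2, with adjusted p between 0.0766 and 0.26. Mmp23, which is anchored by its precursor domain, stood at 24.4 and 14.4 FPKM in ApoE, 55.1 and 60.0 in CKD and 80.7 and 70.3 in Ctrl, and each CKD library lay between the ApoE and Ctrl ones (log2 fold change -1.95, SE 0.25, adjusted p = 0.00252 for ApoE versus Ctrl). Contractile smooth muscle markers were lower in the same libraries, as given above.

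The gelatinases, which cut denatured collagen and basement membrane, did not pass the test. Mmp2, the more abundant of them in FPKM, had 75.9 and 65.4 FPKM in ApoE, 42.9 and 61.5 in CKD and 67.5 and 63.4 in Ctrl, and the ApoE and Ctrl ranges overlapped (log2 fold change 0.11, SE 0.21, adjusted p = 0.706, 95% interval -0.41 to 0.62, for ApoE versus Ctrl). Mmp9, a product of macrophages and neutrophils, had 2.77 and 2.00 FPKM in ApoE, 1.40 and 1.86 in CKD and 1.48 and 1.31 in Ctrl. Both ApoE libraries were above the other 4, by 0.49 against Ctrl (95% interval 0.05 to 0.93, adjusted p = 0.0687).

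Mmp3, a stromelysin that cuts proteoglycans and activates other MMPs, differed widely between replicates. It had 161 and 56.5 FPKM in ApoE, 96.0 and 157 in CKD and 57.6 and 35.4 in Ctrl. Both CKD libraries were above both Ctrl libraries, ApoE 2 lay below Ctrl 1, and no comparison was called (CKD versus Ctrl log2 fold change 1.42, SE 0.54, adjusted p = 0.147). Mmp11, Mmp15 and Mmp28 were between 0.269 and 6.23 FPKM in every library. Of these only Mmp15, a membrane-type MMP, had a call, higher in ApoE at 0.837 and 1.51 FPKM against 0.414 and 0.269 FPKM in CKD (log2 fold change 0.68, adjusted p = 0.0409). That call was lost without any single library but ApoE 1, with adjusted p between 0.0755 and 0.146.

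**Figure D2:**
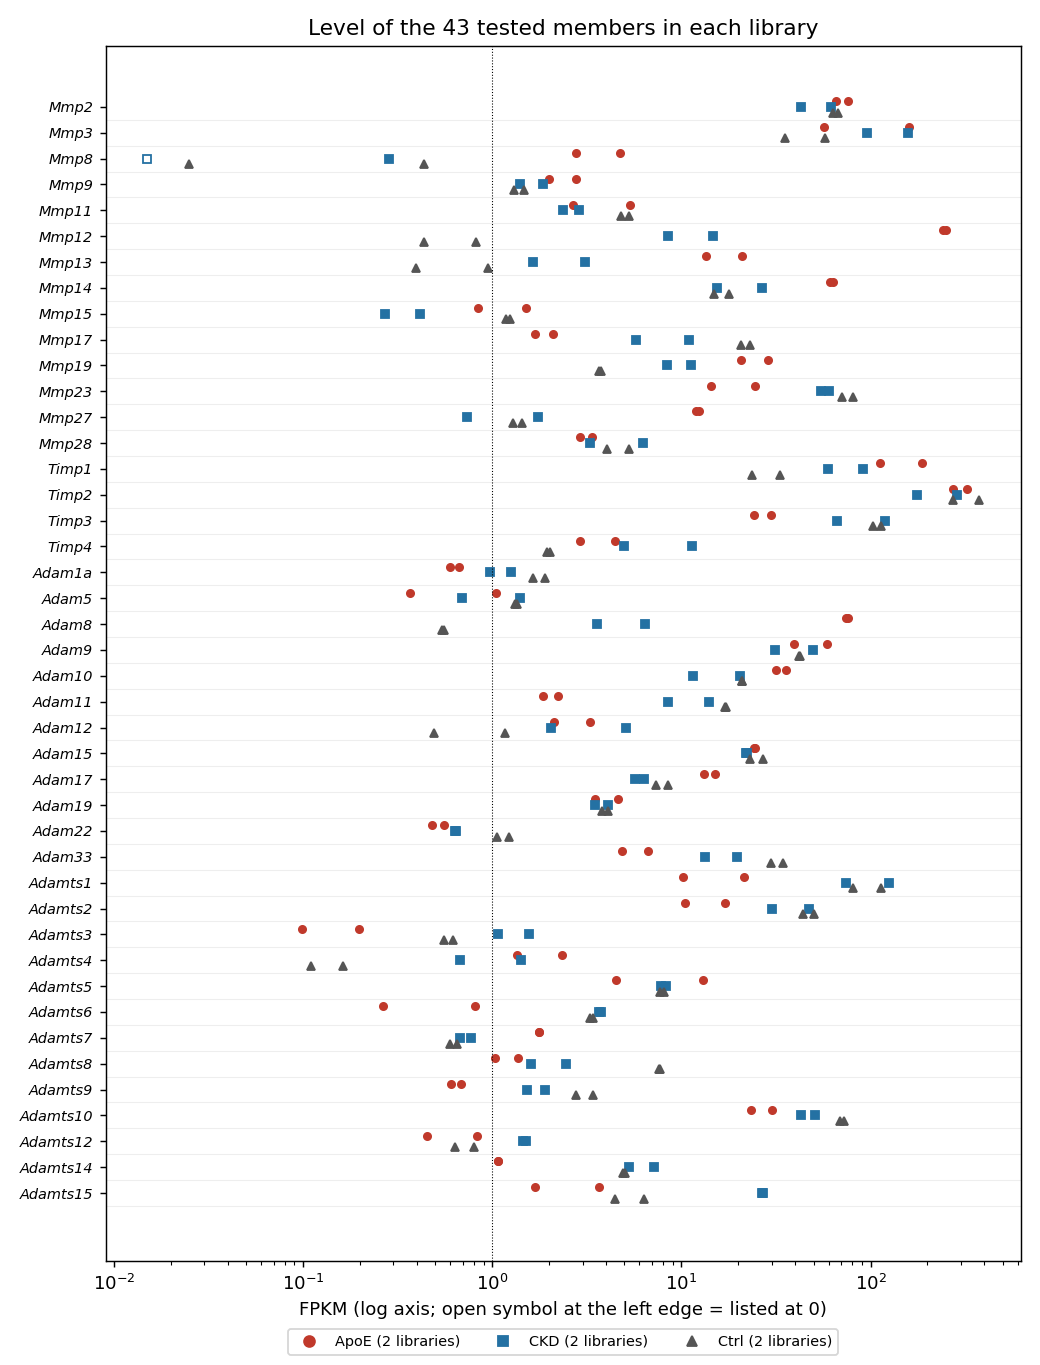
FPKM of the 43 tested members in each library on a log axis, ordered by family (Mmp, Timp, Adam, Adamts); circles are the 2 ApoE, squares the 2 CKD and triangles the 2 Ctrl libraries, the dotted line marks 1 FPKM, and an open symbol is a value of 0. The ApoE circles for Mmp12, at 250.2 and 242 FPKM, stand far right of its Ctrl triangles, at 0.822 and 0.438 FPKM.

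Among the Mmp genes that have values here, 7 are neighbours. Mmp genes without a value, such as Mmp1a and Mmp1b, are not counted. Mmp13, Mmp12, Mmp3, Mmp10, Mmp8, Mmp27 and Mmp7 lie in that order, all on the plus strand, within 427 kb of chromosome 9 (7272514 to 7699585, GRCm38). Of the 5 that were tested, Mmp13, Mmp12, Mmp8 and Mmp27 were called higher in ApoE versus Ctrl, as described above, and Mmp3 was not. Mmp10, a second stromelysin, was at 0.729 and 0.742 FPKM in ApoE and at 0 in the 4 CKD and Ctrl libraries. Mmp7, a small MMP without the hemopexin domain, was at 0.0588 and 0.063 FPKM in ApoE, about 1 read in each library, and at 0 in the other 4. Mmp10 thus had reads in ApoE alone, as did Mmp7 at a count too low to tell from 0, and the ApoE and CKD ranges of Mmp3, which lies between the called genes, overlapped.

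**Figure D3:**
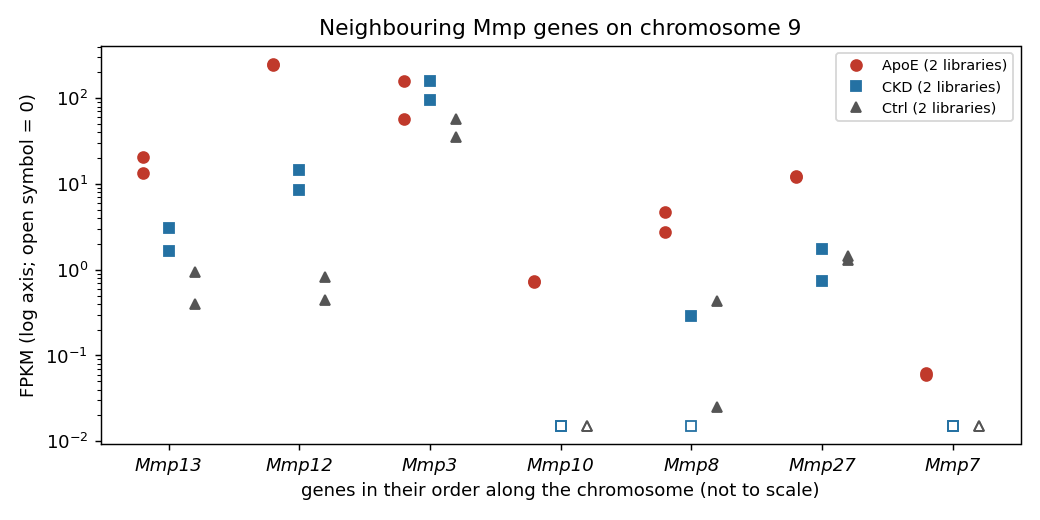
FPKM on a log axis of the 7 neighbouring Mmp genes, in their order along the chromosome, with circles for the 2 ApoE, squares for the 2 CKD and triangles for the 2 Ctrl libraries; open symbols are values of 0. ApoE circles are highest for every gene but Mmp3, where CKD 2 at 157 FPKM lies beside ApoE 1 at 161 FPKM.

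The sequences before the start sites of Mmp13, Mmp12, Mmp3, Mmp10 and Mmp27 are shown. They are given because the neighbours lie close together and most of them were high in the same libraries. Mmp8 and Mmp7 are in the counts of matches, but their sequences are not shown. RefSeq promoter windows (250 bases before to 50 after a start, build GRCm38.p6) were found for 40 of the 66 members. Each was searched on both strands, at any position, for TGANTCA, the site of the AP-1 factors, and TATAAA, the letters of a TATA box. The last 90 bases before the start are given 5′ to 3′, with these letters in capitals and positions counted back from the start. The TGANTCA match begins 35 bases before the start of Mmp13, 44 before the second of 2 RefSeq starts of Mmp12, 46 before the start of Mmp3 and 63 before that of Mmp10. The first start of Mmp12, near the annotated start of the gene, and the start of Mmp27 have neither motif in the whole window.
Mmp13 (chr9:7272424-7272513, plus strand): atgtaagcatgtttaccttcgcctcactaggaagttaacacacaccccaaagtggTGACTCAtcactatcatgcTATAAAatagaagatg
Mmp12 first start (chr9:7344307-7344396, plus strand): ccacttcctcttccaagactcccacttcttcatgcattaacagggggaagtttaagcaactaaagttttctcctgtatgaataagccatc
Mmp12 second start (chr9:7347284-7347373, plus strand): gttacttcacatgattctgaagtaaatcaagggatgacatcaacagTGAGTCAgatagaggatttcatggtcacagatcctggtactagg
Mmp3 (chr9:7445732-7445821, plus strand): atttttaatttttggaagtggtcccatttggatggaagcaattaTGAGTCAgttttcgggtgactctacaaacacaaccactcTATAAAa
Mmp10 (chr9:7502252-7502341, plus strand): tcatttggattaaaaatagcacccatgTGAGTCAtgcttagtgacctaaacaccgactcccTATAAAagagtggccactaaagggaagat
Mmp27 (chr9:7571306-7571395, plus strand): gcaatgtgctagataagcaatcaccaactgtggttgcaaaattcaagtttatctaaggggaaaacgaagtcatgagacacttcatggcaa

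Mmp12 and Mmp7 have 2 windows each, of which 1 holds both motifs and the other neither. TGANTCA was found in 5 of the 9 windows of the neighbours, in 2 of the 36 windows of other members and in 7.81% of all 32851 RefSeq windows. TATAAA was found in 6 of the 9, in 3 of the 36 and in 13.6% of all windows. These counts take in matches of any position and strand. The match of the second Mmp12 start begins at base 5 past the start. That of Mmp8, on the minus strand, begins 3 bases before the start and runs across it. The windows of Mmp8 and Mmp27 lack TGANTCA although both genes were called higher in ApoE, and that of Mmp3 holds it although Mmp3 was not called. A match is only a run of letters and says nothing of what binds there, and no match says only that the letters are not in the window.

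Timp1, Timp2 and Timp3 were among the most abundant members, and the TIMPs differed between groups in opposite directions. Timp1 (ENSMUSG00000001131; chromosome X, 20870166 to 20874735), a secreted inhibitor that many cells make on inflammation, had 188 and 112 FPKM in the ApoE libraries, 59.9 and 91.6 FPKM in the CKD libraries and 33.2 and 23.7 FPKM in the Ctrl libraries. The groups were separate in the order ApoE, CKD, Ctrl. It was called higher in ApoE versus Ctrl (log2 fold change 2.33, SE 0.34, adjusted p = 0.00369), and in CKD versus Ctrl its log2 fold change of 1.37 missed the threshold (adjusted p = 0.0708). The difference of ApoE from CKD, 0.96, was not called either (adjusted p = 0.0692).

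Timp3 (ENSMUSG00000020044; chromosome 10, 86300372 to 86349506), which binds to the matrix and also inhibits ADAM17 and aggrecanases, had 29.7 and 24.1 FPKM in the ApoE libraries, 66.3 and 119.8 FPKM in the CKD libraries and 113 and 103 FPKM in the Ctrl libraries. Both ApoE libraries were below the other 4, and the CKD and Ctrl ranges overlapped. Timp3 was lower in ApoE, both against Ctrl (log2 fold change -1.97, SE 0.30, adjusted p = 0.00407) and against CKD (log2 fold change -1.70, SE 0.30, adjusted p = 0.00789). The call against CKD was lost without ApoE 2 (-1.55, adjusted p = 0.0603).

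Timp2, an inhibitor that also takes part in the activation of the Mmp2 precursor, was the most abundant TIMP in FPKM in every group. It had 274 and 325 FPKM in ApoE, 175 and 285 in CKD and 374 and 272 in Ctrl, all ranges overlapped and no comparison was called. Timp4 had 2.90 and 4.47 FPKM in ApoE, 11.4 and 4.96 in CKD and 1.95 and 2.03 in Ctrl. Both CKD libraries were highest and both Ctrl libraries lowest, but the CKD pair lay far apart and the difference from Ctrl was not called (log2 fold change 1.52, SE 0.36, adjusted p = 0.0634). Without CKD 2, the lower of the pair, that difference was 2.05 and was called. White adipocyte markers were also higher in CKD 1 than in CKD 2. With the adipocyte level as a covariate the log2 fold change of Timp4 was 0.31 (adjusted p = 0.918) in CKD versus Ctrl, and in ApoE versus Ctrl it was -0.47 (adjusted p = 0.565) with the covariate and 0.63 (adjusted p = 0.200) without. The difference of 0.63 was called when CKD 1 or CKD 2 was left out.

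Summed over the 20 Mmp genes, the level averaged 579 ± 110.2 FPKM in ApoE, 301 ± 77.8 FPKM in CKD and 245 ± 31.5 FPKM in Ctrl (SD, n = 2 each). Without Mmp12 the sums were 333 ± 105 FPKM in ApoE, 289.7 ± 73.4 FPKM in CKD and 245 ± 31.2 FPKM in Ctrl, with ranges that overlap. The TIMP sum averaged 479.6 ± 21 FPKM in ApoE, 407 ± 134 FPKM in CKD and 461 ± 86.3 FPKM in Ctrl. The Mmp sum over the TIMP sum was 1.33 and 1.08 in ApoE, 0.788 and 0.71 in CKD and 0.512 and 0.557 in Ctrl, so the groups did not overlap in this ratio. Without Mmp12 the ratio was 0.822 and 0.557 in ApoE, 0.761 and 0.681 in CKD and 0.51 and 0.556 in Ctrl, and ApoE spanned CKD. The ratio compares transcript levels, not enzyme with inhibitor, and was not tested.

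**Figure D4:**
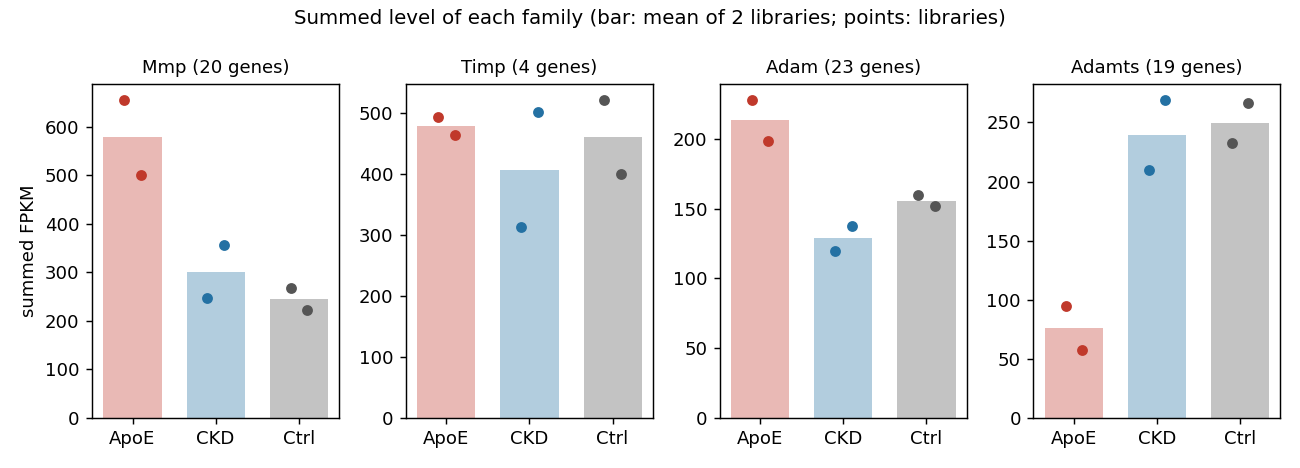
Summed FPKM of all 20 Mmp, 4 Timp, 23 Adam and 19 Adamts genes; bars are means of 2 libraries from a zero baseline and points are the libraries, with ApoE left, CKD in the middle and Ctrl right. The Mmp sum is highest in ApoE, at 657 and 501.0 FPKM, and the Adamts sum is lowest in ApoE, at 94.6 and 57.3 FPKM.

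Among the ADAMs, Adam8 (ENSMUSG00000025473; chromosome 7, 139978932 to 139992562), a protease of macrophages and other leukocytes, changed most. It had 76.2 and 74.1 FPKM in the ApoE libraries, 3.59 and 6.40 FPKM in the CKD libraries and 0.557 and 0.541 FPKM in the Ctrl libraries. The groups did not overlap, and Adam8 was higher in ApoE (log2 fold change 5.62, SE 0.23, adjusted p = 0.000172) and in CKD (log2 fold change 1.91, SE 0.23, adjusted p = 0.0244) than in Ctrl. The CKD call was lost without ApoE 1, ApoE 2, Ctrl 1 or Ctrl 2, with adjusted p between 0.0705 and 0.172. In ApoE it was the most abundant Adam gene in FPKM, whereas Adam9 was in CKD and Ctrl.

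Adam17, which sheds tumour necrosis factor and growth factor precursors, had 15.0 and 13.1 FPKM in ApoE, 5.70 and 6.33 in CKD and 7.35 and 8.48 in Ctrl. Both ApoE libraries were above the rest (log2 fold change 0.76, SE 0.14, adjusted p = 0.00721 for ApoE versus Ctrl), and the difference from CKD was 1.10, adjusted p = 0.00264. The call against Ctrl was lost without Ctrl 1 (0.66, adjusted p = 0.0642). Adam10, a sheddase of Notch and cadherins, had 35.5 and 31.6 FPKM in ApoE, 11.5 and 20.5 in CKD and 20.9 and 21 in Ctrl. ApoE was again above the rest, and the call was made only against CKD (log2 fold change 1.08, SE 0.26, adjusted p = 0.0222), where it was lost without ApoE 1 (1.00, adjusted p = 0.108) or ApoE 2 (1.16, adjusted p = 0.0866). Against Ctrl its log2 fold change was 0.65, adjusted p = 0.0884. Without CKD 1 or CKD 2, whose spread enters the shared variance, that same difference was called.

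Adam9 and Adam15, 2 widely expressed ADAMs, had no call in any comparison. Adam9 had 58.7 and 39.5 FPKM in ApoE, 31.1 and 49.5 in CKD and 42.2 and 42.0 in Ctrl, and Adam15 stayed between 22.1 and 27.1 FPKM in all 6 libraries (95% interval of ApoE versus Ctrl -0.36 to 0.28). Adam12, which is found in growing muscle and cartilage, had 3.28 and 2.12 FPKM in ApoE, 5.07 and 2.06 in CKD and 0.495 and 1.16 in Ctrl. Its Ctrl libraries were lowest, yet neither model passed the test (1.02, adjusted p = 0.0705 for ApoE and 1.26, adjusted p = 0.0955 for CKD, both against Ctrl). Both results depended on the CKD libraries. The ApoE difference was called without CKD 1 or CKD 2, and the CKD difference was 1.75 and called without CKD 2. Adam19 lay between 3.48 and 4.61 FPKM throughout.

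Adam33 and Adam11 were lower in ApoE. Adam33 (ENSMUSG00000027318; chromosome 2, 131050591 to 131063814), a protease of smooth muscle and fibroblasts, had 6.65 and 4.84 FPKM in ApoE, 19.7 and 13.3 in CKD and 34.4 and 29.7 in Ctrl, and the groups were separate, with ApoE lowest and Ctrl highest (log2 fold change -2.30, SE 0.23, adjusted p = 0.00101 for ApoE versus Ctrl). Against CKD its call was lost without ApoE 2 (-1.17, adjusted p = 0.0505). Adam11, an ADAM without protease activity known from neurons, had 1.85 and 2.23 FPKM in ApoE, 14.1 and 8.51 in CKD and 17.2 and 17.1 in Ctrl, again with ApoE clear of the rest (log2 fold change -2.58, SE 0.23, adjusted p = 0.000730). Adam22, its neuronal relative, and Adam1a, known from sperm, were called lower at under 2 FPKM in every library. The Adam22 call was lost without any single one of the 6 libraries, with adjusted p between 0.0501 and 0.195, and that of Adam1a without ApoE 2, Ctrl 1 or Ctrl 2, with adjusted p between 0.051 and 0.0803. Adam5, also a gene of sperm, had no call.

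Of the 13 tested ADAMTS genes, 7 were lower and 2 higher in ApoE against Ctrl (53.8% and 15.4%, beside 24.3% and 19.8% of all genes). Against CKD 9 were lower and 1 higher (69.2% and 7.69%, beside 21.2% and 18.5% of all genes). With the adipocyte covariate the calls of Adamts1, Adamts2, Adamts4, Adamts6 and Adamts7 against Ctrl were lost. Summed FPKM of all 19 Adamts genes was 94.6 and 57.3 in ApoE, 209 and 269 in CKD and 233 and 266 in Ctrl. Of the procollagen N-propeptidases, which trim the amino end of fibrillar procollagens, Adamts2 had 16.9 and 10.4 FPKM in ApoE, 30.2 and 47.3 in CKD and 50.1 and 44.2 in Ctrl and Adamts14 had 1.07 and 1.07 FPKM in ApoE, 7.20 and 5.30 in CKD and 4.93 and 5.03 in Ctrl. Both were below CKD and Ctrl in both ApoE libraries (log2 fold change -1.75, SE 0.29, adjusted p = 0.00599 for Adamts2 and log2 fold change -1.53, SE 0.16, adjusted p = 0.00113 for Adamts14, ApoE versus Ctrl). Adamts3 reached 1 FPKM only in CKD, at 1.07 and 1.56 FPKM, against 0.196 and 0.0991 FPKM in ApoE and 0.553 and 0.62 FPKM in Ctrl. It was called only between ApoE and CKD (log2 fold change -1.0, adjusted p = 0.00870). The call of Adamts2 against CKD was lost without ApoE 2 (-1.12, adjusted p = 0.0729).

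**Figure D5:**
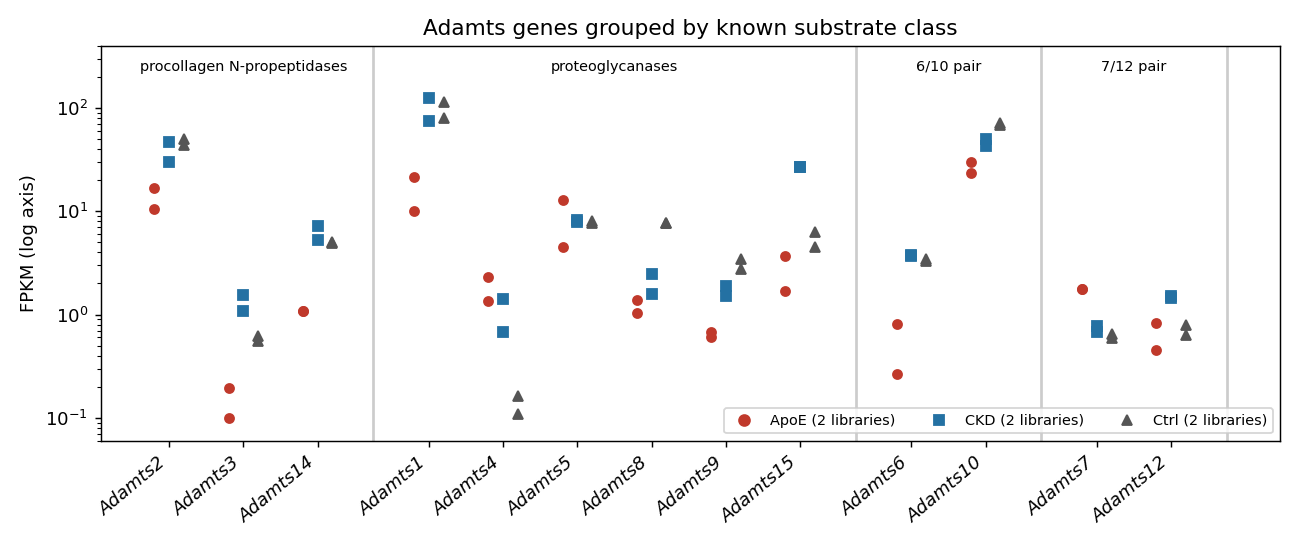
FPKM on a log axis of the 13 tested Adamts genes, grouped by the substrates they are known for, with circles for the 2 ApoE, squares for the 2 CKD and triangles for the 2 Ctrl libraries. The CKD squares of Adamts15, at 26.8 and 27.2 FPKM, lie above its ApoE circles, at 3.65 and 1.68 FPKM, and its Ctrl triangles, at 4.47 and 6.36 FPKM.

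The proteoglycanases, which cut versican and aggrecan, split by gene. Adamts1 (ENSMUSG00000022893; chromosome 16, 85793827 to 85803113) was the most abundant of them in FPKM. It had 21.4 and 10.2 FPKM in the ApoE libraries, 74.4 and 126 FPKM in the CKD libraries and 80.5 and 113 FPKM in the Ctrl libraries, so ApoE was far below the other 4 libraries, and CKD and Ctrl overlapped (log2 fold change -2.61, SE 0.41, adjusted p = 0.00494 for ApoE versus Ctrl and -2.63, adjusted p = 0.00580 for ApoE versus CKD). Adamts4, an aggrecanase, was low, at 2.34 and 1.36 FPKM in ApoE, 1.42 and 0.677 in CKD and 0.162 and 0.110 in Ctrl. For ApoE against Ctrl it was called higher (log2 fold change 1.30, SE 0.26, adjusted p = 0.0104), a call lost without ApoE 1 (1.05, adjusted p = 0.0539) or Ctrl 2 (1.27, adjusted p = 0.0533).

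Adamts5, the main aggrecanase of mouse cartilage, had 13.0 and 4.51 FPKM in ApoE, 7.84 and 8.32 in CKD and 7.70 and 8.07 in Ctrl. The 2 ApoE libraries lay on either side of the other 4 (log2 fold change -0.02, SE 0.41, adjusted p = 0.977 for ApoE versus Ctrl), and the sign of the difference followed whichever ApoE library was kept. Without ApoE 1 it was -0.69, adjusted p = 0.0267, and without ApoE 2 it was 0.66, adjusted p = 0.0338. Adamts5 lies next to Adamts1 on chromosome 16, and the 2 genes were both higher in ApoE 1 than in ApoE 2.

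Adamts15 (ENSMUSG00000033453; chromosome 9, 30899155 to 30922452), another versican-cutting protease, differed in CKD. It had 3.65 and 1.68 FPKM in the ApoE libraries, 26.8 and 27.2 FPKM in the CKD libraries and 4.47 and 6.36 FPKM in the Ctrl libraries. The CKD libraries stood apart from the other 4, and Adamts15 was higher in CKD than in Ctrl (log2 fold change 2.14, SE 0.28, adjusted p = 0.0274) and lower in ApoE than in CKD (log2 fold change -2.99, SE 0.28, adjusted p = 0.00138). The call against Ctrl was lost without any single library other than CKD 2, with adjusted p between 0.0657 and 0.176. Summed FPKM of 5 mesothelial markers, genes of the lining of the body cavities, was 8.43 and 4.61 in ApoE, 55.2 and 44.4 in CKD and 0.391 and 0.815 in Ctrl, so CKD was highest there too. The part of such cells in the Adamts15 level was not tested.

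Adamts8 (ENSMUSG00000031994; chromosome 9, 30942562 to 30963838), a neighbour of Adamts15 on chromosome 9, went the other way. It had 1.37 and 1.04 FPKM in the ApoE libraries, 1.60 and 2.45 FPKM in the CKD libraries and 7.71 and 7.65 FPKM in the Ctrl libraries. Both models were below Ctrl without overlap (log2 fold change -1.98, SE 0.18, adjusted p = 0.000760 for ApoE and log2 fold change -1.54, SE 0.18, adjusted p = 0.0227 for CKD), and the CKD call was lost without any single library other than CKD 2, with adjusted p between 0.0647 and 0.175. Adamts9 had 0.684 and 0.603 FPKM in ApoE, 1.89 and 1.52 in CKD and 2.76 and 3.42 in Ctrl and was called lower for ApoE against Ctrl (log2 fold change -1.31, SE 0.16, adjusted p = 0.00190). Its call against CKD was lost without ApoE 1, ApoE 2 or CKD 1, with adjusted p between 0.0562 and 0.0774.

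Adamts10 and Adamts6, a related pair known for binding fibrillin microfibrils, were both lower in ApoE. Adamts10 had 30.3 and 23.4 FPKM in ApoE, 50.6 and 42.7 in CKD and 69.1 and 72.4 in Ctrl, with the groups separate (log2 fold change -1.38, SE 0.18, adjusted p = 0.00237 for ApoE versus Ctrl), and Adamts6 had 0.807 and 0.265 FPKM in ApoE, 3.69 and 3.76 in CKD and 3.30 and 3.42 in Ctrl, with ApoE alone apart (log2 fold change -1.53, SE 0.19, adjusted p = 0.00225). Against CKD the Adamts10 call was lost without ApoE 2 (-0.60, adjusted p = 0.0914) or CKD 1 (-0.66, adjusted p = 0.0523). Adamts7 and Adamts12, proteases of cartilage oligomeric matrix protein, differed from each other. Adamts7 had 1.77 and 1.77 FPKM in ApoE, 0.775 and 0.672 in CKD and 0.651 and 0.599 in Ctrl and was called higher for ApoE against Ctrl (log2 fold change 0.77, SE 0.15, adjusted p = 0.00876), a call lost without Ctrl 1 (0.79, adjusted p = 0.0518) or Ctrl 2 (0.75, adjusted p = 0.0570). Against CKD the Adamts7 difference was 0.68, adjusted p = 0.0146, lost without ApoE 1 (adjusted p = 0.0517) or ApoE 2 (adjusted p = 0.0595). Adamts12 had 0.825 and 0.453 FPKM in ApoE, 1.51 and 1.46 in CKD and 0.800 and 0.636 in Ctrl, and its call in ApoE versus CKD (-0.61, adjusted p = 0.0398) was lost without any single library but ApoE 1, with adjusted p between 0.0722 and 0.144.

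ApoE versus CKD set the 2 models against each other. The 11 members higher in ApoE were Mmp8, Mmp12, Mmp13, Mmp14, Mmp15, Mmp19, Mmp27, Adam8, Adam10, Adam17 and Adamts7, from 4.34 for Mmp12 to 0.68 for Mmp15. The 14 lower in ApoE were Mmp17, Mmp23, Timp3, Adam11, Adam33 and 9 Adamts genes (Adamts1, Adamts2, Adamts3, Adamts6, Adamts9, Adamts10, Adamts12, Adamts14 and Adamts15), from -2.99 for Adamts15 to -0.61 for Adamts12. Mmp12 (log2 fold change 4.34, SE 0.26, adjusted p = 0.000553), Adam8 (log2 fold change 3.71, SE 0.23, adjusted p = 0.000586) and Mmp19 (log2 fold change 1.24, SE 0.21, adjusted p = 0.00704) were thus called above Ctrl in both models and higher in ApoE than in CKD. The CKD versus Ctrl call of each was lost without ApoE 1, ApoE 2, Ctrl 1 or Ctrl 2. Without ApoE 2 the lower members numbered 7, and the Mmp17 difference, for instance, was -1.54, adjusted p = 0.0538. The 7 calls lost there were those of Mmp17, Timp3, Adam33, Adamts2, Adamts9, Adamts10 and Adamts12.

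The proteins that switch these enzymes on or off were read from a list of 16, of which 13 were tested. In ApoE versus Ctrl 3 were higher and 5 lower, or 61.5% beside 44.1% of all genes, with a median log2 fold change of -0.50 against -0.07 for all genes tested. Plau, the urokinase that makes plasmin, averaged 69.3 ± 14.2 FPKM in ApoE and 3.69 ± 0.874 FPKM in Ctrl (log2 fold change 3.90, SE 0.24, adjusted p = 0.000283). Reck, a membrane inhibitor of MMPs, averaged 7.31 ± 2.00 FPKM in ApoE and 33.7 ± 0.617 FPKM in Ctrl (log2 fold change -2.08, SE 0.27, adjusted p = 0.00250). Pcsk5, a convertase that cuts precursor proteins, and Serpine2, an inhibitor of urokinase and thrombin, were lower (-2.18 and -2.46). None of the 13 passed by limma in CKD versus Ctrl, although 3 had an unadjusted p under 0.05. With the adipocyte covariate 2 were higher and 1 lower in ApoE versus Ctrl, and the calls of Reck (adjusted p = 0.0963) and Serpine2 were lost. The higher calls numbered 1 without Ctrl 2, and 2 without any other single library.

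Partners of ADAM10 and ADAM17 gave calls in both directions, 5 higher and 2 lower of 7 tested in ApoE versus Ctrl (71.4% and 28.6%, beside 19.8% and 24.3% of all genes; median log2 fold change 0.61). The higher calls were 3 without ApoE 1 or ApoE 2, 2 without Ctrl 1 or Ctrl 2 and 1 with the adipocyte covariate. Tspan14, a tetraspanin partner of ADAM10, averaged 39.7 ± 1.46 FPKM in ApoE and 10.7 ± 0.651 FPKM in Ctrl (log2 fold change 1.80, SE 0.12, adjusted p = 0.000317), and Tspan5, of the same group, 4.84 ± 0.0144 FPKM in ApoE and 13.8 ± 0.576 FPKM in Ctrl (-1.34, adjusted p = 0.00144). Frmd8, which stabilises the ADAM17 carrier proteins, was higher (0.86, adjusted p = 0.00450), and the carrier gene Rhbdf1 was lower (-1.47, adjusted p = 0.00154). With the covariate the calls of Tspan5 (adjusted p = 0.0607) and Frmd8 (adjusted p = 0.103) were lost. Tspan5 was the 1 call in CKD versus Ctrl, lower (-0.85, adjusted p = 0.0396), and this was lost without any single library other than CKD 2, with adjusted p between 0.0874 and 0.246.

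Of 18 tested proteins known to be shed by ADAMs, 9 were higher and 4 lower in ApoE versus Ctrl (50% and 22.2%, beside 19.8% and 24.3% of all genes; median 0.45). Without ApoE 1, ApoE 2 or Ctrl 1, and with the adipocyte covariate, 6 were called higher and the 4 lower calls were lost. Without Ctrl 2, 6 were higher and 1 lower. Cxcl16, a membrane chemokine, averaged 59.9 ± 4.81 FPKM in ApoE and 6.09 ± 0.698 FPKM in Ctrl (log2 fold change 3.10, SE 0.23, adjusted p = 0.000429), and Tnfrsf1b, a tumour necrosis factor receptor, 48.6 ± 7.39 FPKM in ApoE and 5.53 ± 0.377 FPKM in Ctrl (2.92, adjusted p = 0.000958). Of these 18 only Il6ra, the interleukin 6 receptor, was called in CKD versus Ctrl (1.04, adjusted p = 0.0264), a share of 5.56% beside 5.44% of all genes. That call was lost without any single library other than CKD 2, with adjusted p between 0.0705 and 0.184.

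Of 21 tested matrix substrates, 13 were lower and 1, Thbs1, was higher in ApoE versus Ctrl (61.9% and 4.76%, beside 24.3% and 19.8% of all genes; median -1.31). With the adipocyte covariate 1 was lower, and 7 were without ApoE 2 or without Ctrl 1. The Thbs1 call was lost without ApoE 1, ApoE 2, Ctrl 1 or Ctrl 2, with adjusted p between 0.0576 and 0.120. Vcan, which encodes the versican cut by several ADAMTSs, averaged 3.71 ± 0.681 FPKM in ApoE and 19.9 ± 1.60 FPKM in Ctrl (log2 fold change -2.16, SE 0.18, adjusted p = 0.000650), and Sparc, a collagen-binding protein, 367 ± 15.2 FPKM in ApoE and 1682 ± 90.8 FPKM in Ctrl (-2.19, adjusted p = 0.00283). The Sparc call was lost with the covariate (adjusted p = 0.0868). Sparc was also lower in CKD than in Ctrl (-1.91, adjusted p = 0.0346), as was the collagen gene Col1a1 (-1.91, adjusted p = 0.0364), the 2 calls of that comparison, 9.52% beside 5.44% of all genes. Without any single library other than CKD 2 both calls were lost, with adjusted p between 0.0567 and 0.202 for Sparc and between 0.0617 and 0.213 for Col1a1.

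Of 7 tested relatives, 6 were lower in ApoE versus Ctrl, namely Bmp1 and 5 ADAMTS-like genes that carry no protease domain (85.7% beside 24.3% of all genes; median -1.10), with Adamtsl5 at -1.43 and Bmp1, the procollagen C-proteinase, at -1.0. In all 4 were called lower without ApoE 2 or Ctrl 2, 3 without Ctrl 1, when Bmp1 was lost (adjusted p = 0.0630), and 2 with the covariate. Fibroblast markers were also lower in ApoE, with 6 of 10 called, and 1 of 10 with the covariate.

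The 23 members under 1 FPKM were 6 Mmp, 11 Adam and 6 Adamts genes. The highest of them was Mmp16, a membrane-type MMP, with at most 0.866 FPKM, and the lowest Adam7, with at most 0.0185 FPKM. Of the 12 ADAMs known mainly from the male reproductive tract, 10 were in this set. A value of 0 is limited by depth, since 3 reads in a gene with 2 kb of exon were worth 0.0902 to 0.104 FPKM, for counting error only.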

How the data were processed

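The authors deposited 1 value per gene and library, read here as FPKM because of how the values behave, as nothing in the headers or labels states a unit. Times exon length (GENCODE M21), 94.9% to 95.5% of low values gave whole reads, within 0.05. The submitters' processing notes name HISAT2 2.1.0, TopHat2, Bowtie2 2.2.3 and the build GRCm38. The counter and its annotation were not given in the sources used here. In 5 files, recorded as other, identifiers and values share 1 column.

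Symbols were matched for 27695 of 27815 identifiers. The log2(FPKM + 1) values of the 14074 genes with at least 1 FPKM in 2 libraries entered a single limma 3.58.1 model of group means (R 4.3.3, all 6 libraries, variance trend, robust spread), which shares 1 spread estimate, and pairs of groups were contrasts. The fit was also run on simulated data, drawn with the same spread for every library. The groups here differed in spread, so that run cannot vouch for the calls given. Libraries of a group differed by 43.4 (ApoE), 75.7 (CKD) and 19.5 (Ctrl) times the degrees of freedom of a chi-square of recovered reads, so none was a copy of another.

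The members and lists were chosen with earlier results of these data known. Values per library are given for the TIMPs, the 8 largest called rises and falls of a comparison, the 3 most abundant genes of a family and a set of well-known proteases. List genes named are the up to 4 called with the smallest adjusted p, or the most abundant where none was called, and some others are named after their values were seen. A gene that this rule names in CKD versus Ctrl is not reported here. Alternatives covered the pseudocount, the filter, 2 scalings, the libraries fitted, a replicate block, the variance model, an adipocyte marker covariate and each library left out. Applying these settings to the lists, and taking the ratio of sums without Mmp12, were chosen after seeing the data.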

Additional observations from a re-analysis of the deposited data

How the results depend on the processing

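Genes called in ApoE versus Ctrl numbered 6208, and 1716 with the adipocyte covariate. In CKD versus Ctrl 766 were called, 1 with no filter on low values, 1 with only the 4 libraries compared and 0 with the covariate. Leaving out single libraries gave 3021 to 7019 genes in ApoE versus Ctrl, 0 to 2416 in CKD versus Ctrl and 2914 to 5045 (5592 with all) in ApoE versus CKD. Members higher were 11 in ApoE versus Ctrl (7 with the covariate, 9 to 14 with a library left out) and 11 in ApoE versus CKD (9 to 11). Members lower were 14 in ApoE versus Ctrl (7 with the covariate, 12 to 16) and 14 in ApoE versus CKD (7 to 15). In CKD versus Ctrl the 4 higher members became 0 with no filter, with only the 4 libraries or with the covariate, and 0 to 6 with a library left out. The 2 lower members became 1 with a pseudocount of 0.1, with median-ratio scaling or without trend and robust spread, 0 with no filter, with only the 4 libraries or with the covariate, and 0 to 3 with a library left out.

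With the replicate number as a block, CKD versus Ctrl gave 46 genes, 1 member higher and 0 lower. Deviations of same-numbered libraries correlated at -0.0966 (ApoE and CKD), 0.0457 (ApoE and Ctrl) and -0.233 (CKD and Ctrl). With 2 libraries in a group, these values cannot tell whether libraries of different groups share a batch, under this numbering or another. A crossed block, chosen after seeing the data, gave 1230 genes and 8 members higher there. Adamts5, at -0.02 in ApoE versus Ctrl and -0.05 in ApoE versus CKD, was at 0.66 and 0.63 without ApoE 2 and at -0.69 and -0.72 without ApoE 1, which is the spread of its 2 ApoE libraries. Of 1890 values of single members under these settings, 1695 kept direction and side of the threshold, 113 were no longer called, 25 became called with their direction kept and 57 took the other sign, of which 2, both of Adamts5, were called and 55 were not called with or without the change of setting. No scaling moved the median log2 fold change of all genes by more than 0.07. Members under 1 FPKM are limited by depth.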

Other observations

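Another group of proteases, the lysosomal cathepsins with their cystatin inhibitors, was described from a list of 15, of which 14 were tested. In ApoE versus Ctrl 11 were higher and 1, Ctsf, was lower, or 78.6% and 7.14% beside 19.8% and 24.3% of all genes, with a median log2 fold change of 2.02, and their summed FPKM was 8410 and 10938 in ApoE, 2394 and 3091 in CKD and 2513 and 2243 in Ctrl. Ctss, a cathepsin of antigen-presenting cells that also cuts elastin, averaged 1983 ± 321 FPKM in ApoE and 34.5 ± 4.64 FPKM in Ctrl (SD, n = 2 each; log2 fold change 5.80, SE 0.39, adjusted p = 0.000347 by limma). Ctsb, a lysosomal cysteine protease, averaged 2372 ± 440.0 FPKM in ApoE and 209.7 ± 0.0483 FPKM in Ctrl (log2 fold change 3.48, SE 0.21, adjusted p = 0.000271), and Ctsd, an aspartic protease, 1476 ± 444 FPKM in ApoE and 113 ± 0.481 FPKM in Ctrl (3.66, adjusted p = 0.000312). Cstb, an inhibitor of cathepsins, was higher as well (2.47, adjusted p = 0.000303). In CKD versus Ctrl limma called 0 of the 14, of which 4 had an unadjusted p under 0.05 and Ctss the smallest adjusted p, 0.0667, and Cst3, the most abundant cystatin in FPKM, averaged 1742 ± 294 FPKM in CKD and 1514 ± 158 FPKM in Ctrl. Macrophage markers were higher in the ApoE libraries too, and their part in these levels was not tested.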
